A study of Rattus norvegicus with 12 samples.

Results

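Brain and testis were compared within rats that carry human DNMT3A. The comparison used 6 of the 12 libraries of the series, 3 of transgenic brain and 3 of transgenic testis, and the 16102 of 25908 listed genes whose mean over the 6 libraries was at least 1 FPKM (fragments scaled to gene length and to the size of the library). All rats of the series were adult males of the Sprague Dawley strain, aged 15 weeks. The 6 libraries of the comparison share the genotype hDNMT3A, and the other 6, used for reference, came from brain and testis of wild-type rats. The sources used here do not give the promoter or the tissue range of the transgene, or say whether samples of a group came from separate animals. The p-values therefore rest on the spread of these samples alone, and that spread may be technical.

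DNMT3A is an enzyme that methylates cytosines not methylated before, and DNA methylation is one of the marks that keep germ-line genes silent in somatic tissue. Testis contains germ cells at every step from spermatogonia through meiosis to sperm, and is known for transcribing an unusually wide range of genes, many of them used nowhere else. Brain contains neurons and glia, and is known for its own large set of genes for synapses, ion channels and myelin. The table gives Ensembl identifiers, and 0 of them matched the reference table of 47357 rat genes, so genes are described here as groups and by level. Marker genes of either tissue, the lists of pathway genes and rat Dnmt3a were not analysed here. The 4 identifiers named below are the 2 with the largest difference in each direction.

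The transgenic libraries were of even depth. The number of reads behind the FPKM values came to between 14833866 and 16112149 per library. Testis libraries showed more genes than brain libraries at that depth: 20811 to 21381 genes had at least 1 read in a testis library, against 18904 to 19163 in a brain library. Between 14314 and 14709 genes reached 1 FPKM in testis and between 13573 and 13733 in brain. At 100 FPKM or more stood 1061, 1070 and 1103 genes in the testis libraries and 655, 700 and 682 in the brain libraries. The groups did not overlap in any of these 3 counts, and each gave p = 0.1 in an exact two-sided permutation test, the smallest that 3 samples against 3 can give.

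Brain transcripts were concentrated in fewer genes at the very top. The 10 most abundant genes took 18.2%, 16.8% and 16.3% of the summed FPKM of the brain libraries, against 10.7%, 10.2% and 9.50% in testis. Every brain library lay above every testis library (exact two-sided permutation test, p = 0.1). The same 10 genes led each brain library, and another set of 10 led each testis library, with 3 genes in both sets. Of the brain's 10, 7 also stood at 1000 FPKM or more in testis and 0 were over 16-fold higher in brain. Of the testis' 10, only the 3 shared genes reached 1000 FPKM in brain, and the other 7 were all over 16-fold higher in testis. So the most abundant brain genes were largely abundant in testis too, while most of the leading testis genes were not abundant in brain.

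The main comparison asked which genes differ between the tissues, and by how much. Brain and testis differed in 14342 of the 16102 genes (89.1%) by limma with Benjamini-Hochberg adjustment, at an adjusted p under 0.05. Higher in brain were 7666 (47.6% of the genes tested) and higher in testis 6676 (41.5%). The 3 libraries of one tissue all lay above the 3 of the other in 14424 genes (89.6%). With so many genes called, a call on its own separates little, and the size of the difference carries the information. The median size was 1.85 on the scale of log2(FPKM + 0.5), where the median SD between libraries of a tissue was 0.13 in brain and 0.14 in testis. On this scale the fold change of a gene with low values is understated. Bulk tissue was measured, so a lower value can mean fewer cells of a type or less RNA per cell, and these cannot be told apart.

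Tested against a minimum of 2-fold (limma's treat), 9922 genes (61.6%) differed, 5068 (31.5%) higher in brain and 4854 (30.1%) higher in testis. This small excess toward brain was not stable. With libraries scaled by their median log2 ratio it turned to 4615 against 5160, and without a filter on the mean to 5148 against 5282. Without transgenic brain replicate 1, 2 or 3 it turned to 4810 against 4942, 4917 against 4941 and 4788 against 4940. Without transgenic testis replicate 1, 2 or 3 it grew, to 5005 against 4585, 5044 against 4545 and 5090 against 4679. The filter on the mean used the libraries left, so leaving out a library also changed the genes tested. Over all genes the median difference was 0.21 toward brain, and 0.03 after scaling by the median log2 ratio. The direction for single genes near that size thus depends on the scaling. Genes within 0.5 of 0 on the log2 scale (1.41-fold) numbered 2502, and 930 of them were still called.

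The largest differences were more often toward testis. Genes over 16-fold higher in testis numbered 1726 (10.7% of those tested) and genes over 16-fold higher in brain 1072 (6.66%). Beyond 256-fold the counts were 179 and 38. The excess of testis genes beyond 16-fold was present in each of the 17 alternatives tried, though a pseudocount of 0.1 in place of 0.5 raised the counts to 2758 and 1677, and voom on the recovered reads gave 2810 and 1771. These counts describe the libraries and carry no test of their own.

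**Figure D1:**
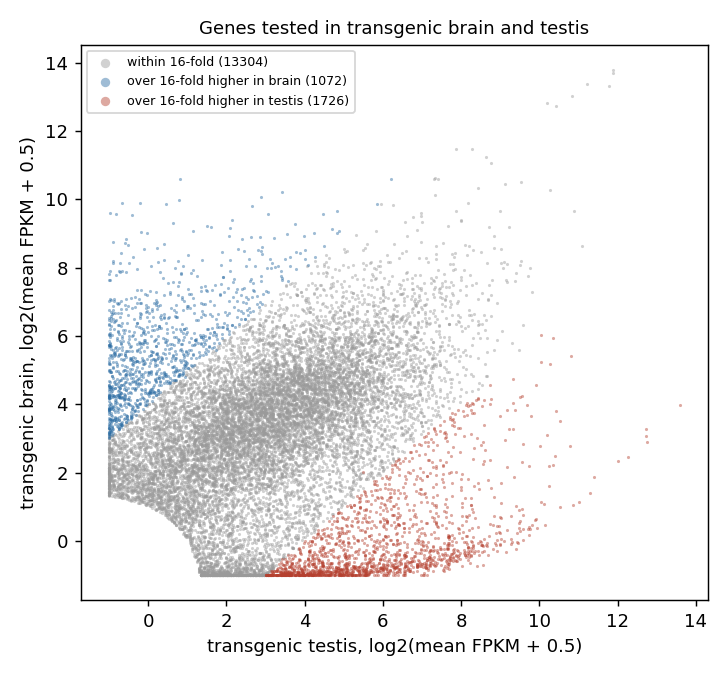
Mean level of the 16102 genes tested in transgenic testis (horizontal axis) and transgenic brain (vertical axis), each as log2(mean FPKM + 0.5), with 1 point per gene. Red points are the 1726 genes over 16-fold higher in testis and blue points the 1072 over 16-fold higher in brain. The lower edge of the red points rises at the right, where the most abundant testis genes have a measurable value in the brain libraries. The part of testis RNA in these values was not tested.

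Genes over 16-fold higher in testis held a larger share of their tissue than such genes of brain. The 1726 testis genes took 46.4% ± 0.28 (SD, n = 3) of the summed FPKM of the testis libraries and 0.47% ± 0.04 (SD, n = 3) of that of the brain libraries. The 1072 genes over 16-fold higher in brain took 21.2% ± 0.29 (SD, n = 3) of the brain libraries and 0.292% ± 0.009 (SD, n = 3) of the testis libraries. These classes were chosen on the same values, so their shares are a description. Their shares in the wild-type libraries, which took no part in the choice, were 46.5% to 47.5% in testis for the testis genes and 20.1% to 20.5% in brain for the brain genes. In wild-type brain replicates 1, 2 and 3 the testis genes took 0.59%, 1.33% and 0.44%, against 0.43% to 0.51% in the transgenic brain libraries. In brain, genes 4 to 16-fold higher there held more, 28.2% ± 0.42, and those 2 to 4-fold higher about as much, 21.1% ± 0.26 (SD, n = 3). The 2502 genes within 1.41-fold held 11.8% ± 0.13 in brain and 9.89% ± 0.28 in testis (SD, n = 3).

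**Figure D2:**
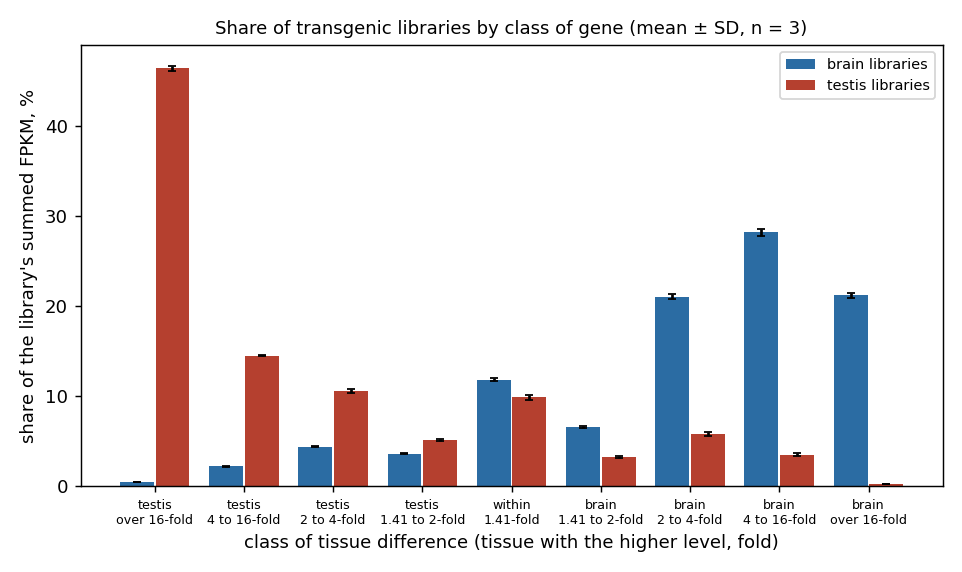
Share of the summed FPKM of the transgenic libraries (vertical axis, percent) held by genes of each class of tissue difference (horizontal axis), with bars for the mean and lines for the SD of 3 brain (blue) and 3 testis (red) libraries. Genes over 16-fold higher in testis take 46.4% of the testis libraries, while in brain the widest share, 28.2%, belongs to genes 4 to 16-fold higher in brain.

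In testis, differences over 16-fold were more frequent the more abundant the genes were, and in brain the most frequent band was 100 to 1000 FPKM. Of the 38 genes with a mean of 1000 FPKM or more in testis, 28 (73.7%) were over 16-fold higher there, against 5 of 24 (20.8%) for brain. From 100 to 1000 FPKM the counts were 525 of 1041 (50.4%) in testis and 243 of 657 (37.0%) in brain. From 10 to 100 FPKM they were 1095 of 5589 (19.6%) and 790 of 6390 (12.4%). Below that, from 1 to 10 FPKM, the pseudocount limits the fold that can be seen, and 78 of 7891 and 34 of 6586 genes passed 16-fold. To a lesser degree it also lowers the fold of genes from 10 to 100 FPKM whose level in the other tissue is near 0. Part of the rise with abundance may therefore lie in the scale, and that part was not tested. In this lowest band 990 of the testis genes had 0 reads in all 3 brain libraries, against 252 of the brain genes with 0 reads in testis. A short gene reaches 0 reads at a higher FPKM than a long one, and genes higher in testis were shorter, so these counts are not matched for length.

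Among brain genes, ENSRNOG00000010688 had the largest difference. It stood at 867, 978 and 1030 FPKM in brain replicates 1, 2 and 3, and at 0.24, 0 and 0.14 FPKM in the testis replicates. The testis values rest on 5, 0 and 3 reads, against 18135 to 21454 reads in a brain library, a ratio of 7571 after scaling to depth (95% counting interval 3842 to 17537, exact Clopper-Pearson). On the log2 scale the difference was 10.60 (SE 0.15, limma adjusted p = 1.6e-09). ENSRNOG00000006037 stood at 740, 908 and 675 FPKM in brain, and a single read in testis replicate 1 was all that was found in testis. Its log2 difference was 10.56 (SE 0.12, limma adjusted p = 1.56e-09), and the ratio of reads, 75555, has a counting interval of 13560 to 2984312. In both genes the testis level is at or near the limit of the depth, so the fold is known only to that interval. In the wild-type libraries, which were not part of the choice, ENSRNOG00000010688 stood at 832 ± 43.6 FPKM in brain and ENSRNOG00000006037 at 769 ± 40.3 FPKM (SD, n = 3), with 2 and 3 reads in all over the wild-type testis libraries.

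Among testis genes, ENSRNOG00000020863 differed most. It stood at 7353, 7305 and 6176 FPKM in testis replicates 1, 2 and 3, and at 1.44, 7.86 and 11.6 FPKM in the brain replicates. ENSRNOG00000006578 stood at 4789, 5207 and 4815 FPKM in testis and at 0.98, 4.98 and 9.12 FPKM in brain. The log2 differences were -10.22 (SE 0.60) and -10.17 (SE 0.60), with limma adjusted p-values of 1.08e-06 and 1.02e-06. Within testis both genes varied little, and within brain the highest library was 8.04 and 9.26 times the lowest, so the fold depends on the brain library. The ratios of reads were 995 and 982 over the 3 libraries, with counting intervals of 875 to 1136 and 860 to 1128 that do not cover this spread. Without transgenic brain replicate 1 the log2 differences were -9.43 and -9.41.

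How much of the other tissue's RNA each library showed bears on every statement about restriction to a tissue. For each brain library, genes of at least 100 FPKM in transgenic testis whose median in the other 5 brain libraries did not pass 0.5 FPKM were chosen, so that the library read had no part in the choice. The set chosen therefore differs between libraries, so the percentages and the test on them compare unlike sets of genes. Such genes, 164 to 228 in number, reached 0.048%, 0.133% and 0.177% of their testis level in transgenic brain replicates 1, 2 and 3. In the wild-type brain libraries they reached 0.341%, 1.61% and 0.064%. The third wild-type library thus lay inside the transgenic range, and the other 2 lay above it. The mean was 0.119% ± 0.066 in transgenic and 0.673% ± 0.827 in wild-type brain (SD, n = 3), with p = 0.3 in an exact permutation test, two-sided, where 0.1 is the smallest possible. In the reverse direction, brain genes chosen in the same way, 67 to 70 in number, reached 0.075% to 0.099% of their brain level in transgenic testis and 0.070% to 0.079% in wild-type testis.

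The most abundant testis genes followed the same order in brain. The 19 genes of at least 1000 FPKM in testis whose other brain libraries had a median of at most 0.5% of the testis level reached 0.054%, 0.163% and 0.191% of it, summed, in transgenic brain replicates 1, 2 and 3. Their quartiles over genes were 0.023% to 0.106%, 0.113% to 0.254% and 0.158% to 0.232%. ENSRNOG00000020863 and ENSRNOG00000006578 both ordered the 6 brain libraries as the percentages of the testis genes do. From low to high, these are transgenic replicate 1, wild-type replicate 3, transgenic replicates 2 and 3, and wild-type replicates 1 and 2. At the top, ENSRNOG00000020863 reached 127 FPKM in wild-type brain replicate 2. The part of testis RNA in the brain values of single genes was not tested.

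**Figure D3:**
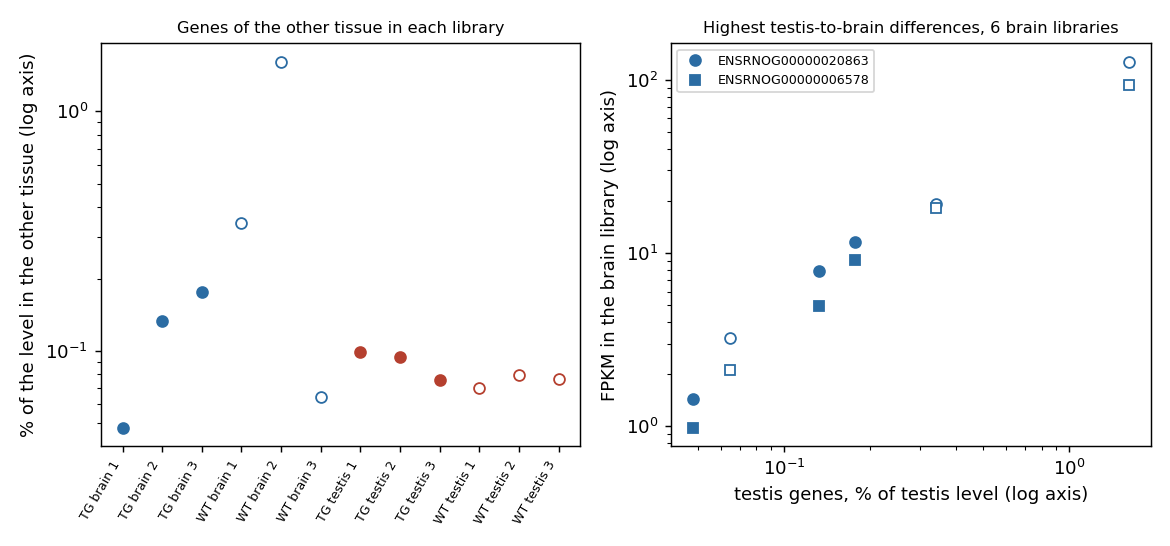
Left, level of the other tissue's genes in each library as a percent of their level in their own tissue, on a log axis, with 1 point per library (blue, brain; red, testis; filled, transgenic or TG; open, wild type or WT). Right, FPKM of ENSRNOG00000020863 (circles) and ENSRNOG00000006578 (squares) in the 6 brain libraries against that percent, both on log axes; transgenic brain replicate 1 is lowest at 0.048% and wild-type brain replicate 2 highest at 1.61%.

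Tissue restriction was then counted with limits on each library: a mean of at least 10 FPKM in one tissue and at most 0.5 FPKM in each of the 3 libraries of the other. Testis-restricted genes numbered 941, which is 14.1% of the 6668 genes at 10 FPKM or more in transgenic testis. Brain-restricted genes numbered 491, or 6.94% of 7071. The testis-restricted genes took 9.90%, 9.71% and 9.44% of the summed FPKM of the testis libraries and between 0.014% and 0.027% of that of the brain libraries. The brain-restricted genes took 5.66%, 5.78% and 5.82% of the brain libraries and 0.012% to 0.013% of the testis libraries. Near the limits, 87 testis genes had their highest brain library between 0.4 and 0.5 FPKM and 85 between 0.5 and 0.6. For brain genes these counts were 73 and 56.

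Complete absence of reads was also more frequent for testis genes in brain. Of the 941 testis-restricted genes, 193 (20.5%) had 0 reads in the 3 transgenic brain libraries, and of the 491 brain-restricted genes, 52 (10.6%) had 0 reads in the testis libraries. A count of 0 allows up to 3 reads over the group, and counting error only is covered by this limit. Against it, the median of the 193 genes was at least 219-fold higher in testis, with bounds from 8.33 to 1962 for single genes, and the median of the 52 genes was at least 364-fold higher in brain, with bounds from 13.0 to 5779. The median length of the testis-restricted genes was 1419 bp and of the brain-restricted genes 2832 bp, and its part in the counts of 0 reads was not tested. A bound says how far the depth reaches, and not how strict the restriction is.

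A limit in FPKM leaves out the most abundant genes. No gene of 1000 FPKM or more in either tissue was at most 0.5 FPKM in each library of the other, and the highest testis-restricted gene stood at 451 FPKM, against 958 FPKM for the highest brain-restricted gene, ENSRNOG00000010688. A limit in percent does not have this ceiling. Of the 1079 genes of at least 100 FPKM in transgenic testis, 342 (31.7%) had a mean in brain of at most 0.5% of the testis level, 177 (16.4%) lay from there to 5%, 375 (34.8%) to 50%, and 151 from 50% to 200%. Of the 681 genes of at least 100 FPKM in brain, 90 (13.2%), 141 (20.7%), 289 (42.4%) and 139 fell into these bands. The remaining 34 and 22 genes were over 200%. The median was 5.51% for testis genes and 13.5% for brain genes. The lower quartile of the testis genes was 0.225%, beside the mean of 0.119% for the held-out testis genes in these brain libraries.

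Restriction was compared with the wild-type libraries, which had no part in the choice. Of the 491 brain-restricted genes, 429 (87.4%) also met the limits in wild type, where 510 genes did in all. Of the 941 testis-restricted genes, only 366 (38.9%) met them in wild type, where the total was 408. In wild-type brain replicates 1, 2 and 3, 122, 521 and 20 of the 941 genes were over 0.5 FPKM, and 48 were under 10 FPKM in wild-type testis. Without wild-type brain replicate 2, the library at 1.61%, the wild-type total was 867 and 757 of the 941 genes (80.4%) met the limits. Leaving out a brain library cannot lower such a count. Without transgenic brain replicate 1, 2 or 3 the transgenic total was 965, 984 and 1035. By percent, 313 testis genes of at least 100 FPKM were at most 0.5% in each transgenic brain library, 1 was so in each wild-type brain library, and 280 were so without wild-type brain replicate 2. The difference in testis-restricted genes between genotypes was thus mostly held by a single library. A smaller difference remained when a brain library was left out in each genotype. The counts of brain genes, 76 in transgenic and 75 in wild type, were close.

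Testis-higher genes were shorter than brain-higher genes. The gene length behind each FPKM value was recovered with the reads, as the smallest length that makes the 12 values whole, and its median over the genes tested was 2079 bp. Genes over 2-fold higher in brain by treat had a median of 2434 bp (quartiles 1521 and 3780), those over 2-fold higher in testis 1650 bp (834 and 2701), and the rest 2177 bp. In the class over 16-fold higher in testis the median was 1490 bp, and 32.3% were under 1000 bp. In the class over 16-fold higher in brain it was 2673 bp, with 12.4% under 1000 bp. Over all genes tested the log2 fold change and the log2 length were weakly related (Pearson r = 0.171, Spearman rho = 0.198 across 16102 genes, which are not independent replicates and share libraries).

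The difference in length was seen at every level of abundance. It narrowed over bins of rising FPKM, but not from a minimum of 100 reads to one of 1000. In 4 equal bins of genes by mean FPKM, from low to high, median lengths were 2308, 2585, 2607 and 2232 bp for genes over 2-fold higher in brain and 953, 1690, 1986 and 1788 bp for those higher in testis. FPKM divides by length, so a short gene passes a limit of 1 FPKM with few reads. Among genes with a mean of at least 1000 reads the medians were 3379 and 2376 bp, and among those with at least 100 reads 2750 and 2043 bp.

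**Figure D4:**
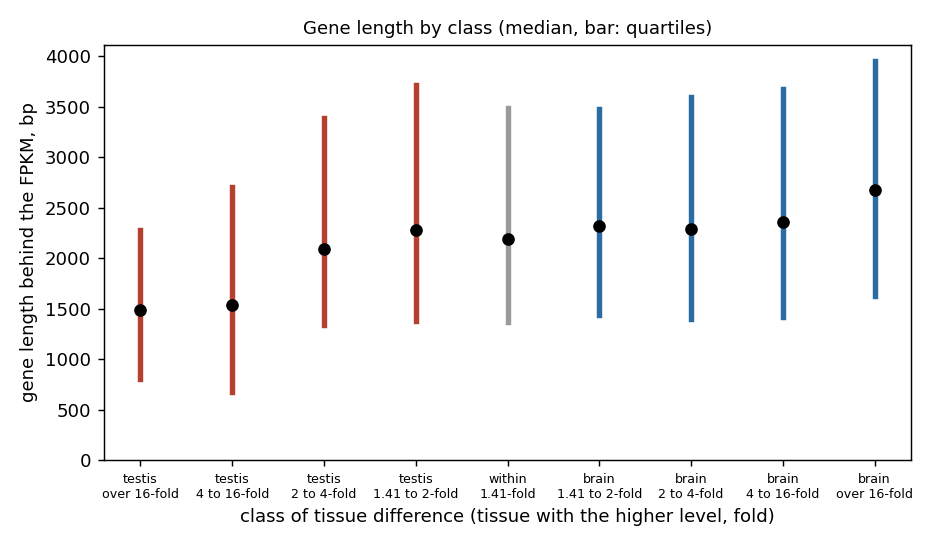
Gene length behind the FPKM values (vertical axis, bp) by class of tissue difference in transgenic rats (horizontal axis), with the median as a point and the quartiles as a bar (red, higher in testis; grey, within 1.41-fold; blue, higher in brain). The median is 1490 bp in genes over 16-fold higher in testis and 2673 bp in genes over 16-fold higher in brain.

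Whether the tissue difference itself differed from that of wild-type rats was tested as an interaction over all 12 libraries. It was called for 69 of 16100 genes (0.429%) by limma with Benjamini-Hochberg adjustment. In 27 (0.168%) the difference, brain minus testis, was higher in transgenic rats, and in 42 (0.261%) it was lower. The interactions ran from -3.97 to 3.74 on the log2 scale, with a median size of 1.27. The genotypes differed more in testis than in brain for 56 of the 69 genes and more in brain for 13. The same split over all 16100 genes is not given here, so whether it sets the 69 genes apart cannot be told. The tissue differences of transgenic and wild-type rats had opposite signs in 9 genes. Of the 15724 genes tested in each genotype, 97% had the same sign. A called interaction favours unlike signs by construction, so the count of 9 is a description. In the tissue comparison of transgenic rats 59 of the 69 were tested. By treat, 19 of them were over 2-fold higher in brain and 21 over 2-fold higher in testis. Of all genes tested there 31.5% and 30.1% were, so these counts set the genes little apart. The count fell to 25, 36 and 34 without transgenic brain replicates 1, 2 and 3, to 43 without wild-type brain replicate 1, and to 41 and 38 without wild-type testis replicates 2 and 3. Leaving out transgenic testis replicate 2 gave 46 genes, 24 higher and 22 lower. It was 53 without wild-type brain replicate 2.

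Over all genes the tissue difference was much alike in both genotypes. Among the 15724 genes tested in each, 97% had the same sign. Of the 13623 genes called in both, 10 had opposite signs, and of the 9324 over 2-fold by treat in both, 0 did. The contrasts share no library, and across genes they had a Pearson r of 0.994, given as a description. They differed by over 1 on the log2 scale in 411 genes, 290 lower and 121 higher in transgenic rats. Without wild-type brain replicate 2 the numbers were 149 and 163, so that the excess on the lower side was gone. For the 1723 genes over 16-fold higher in transgenic testis and tested in both, the median contrast was -5.61 in transgenic and -5.34 in wild-type rats, and -5.61 in wild type without that library. For the 1072 genes over 16-fold higher in brain it was 5.08 and 5.06. The interactions of ENSRNOG00000020863 (-1.75) and ENSRNOG00000006578 (-2.04) were not called (limma adjusted p = 0.799 and 0.770). Their wild-type brain values were 19.3, 127 and 3.25 FPKM and 18.1, 93.7 and 2.11 FPKM in replicates 1, 2 and 3.

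**Figure D5:**
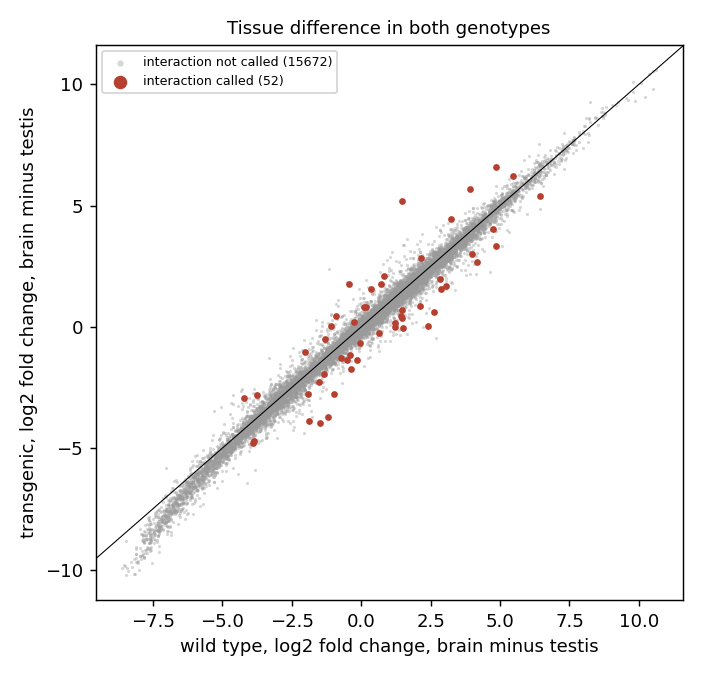
Log2 fold change, brain minus testis, in wild-type (horizontal axis) and transgenic rats (vertical axis) with the line of equality and a point for each of the 15724 genes that both genotypes tested. Red points are the 52 of these genes with a called interaction and grey points the other 15672. At the lower left, where genes are far higher in testis, the points fall below the line. For genes over 16-fold higher in transgenic testis the median was -5.61 in transgenic and -5.34 in wild-type rats. Without wild-type brain replicate 2, which is included in the points, the wild-type median was -5.61.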

How the data were processed

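RNA of brain and testis was sequenced from libraries built with the TruSeq RNA kit on total RNA taken up in Trizol, per the labels' protocols. The values are FPKM, computed and deposited by the authors for 25908 genes in 12 libraries. The submitters' processing notes name Bowtie 1.0.1 and build Rnor_6.0. Which annotation and counting tool were used, and how strand and multiply mapping reads were treated, is not stated in any source used here, so near-identical and overlapping genes are uncertain.

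Reads and gene lengths were recovered from the spacing of the FPKM values: in 100% of genes the 12 values were whole reads within 0.002 for 1 length of up to 60000 bp, and in 0% of 500 genes moved by 1%. The smallest such length was taken, so the true length may be a multiple of it where the true reads share a divisor. Genes with few reads are most open to this. The recovered reads share a divisor in 11 of the genes tested, a count that does not show how many lengths are understated. Totals ran from 14004547 to 16112149 reads, of which listed genes held at least 99.987%. Libraries of a group differed by more than counting noise (chi-square of 4.53 to 13.4 per gene), so none was treated as a repeat deposit of another, which does not show that they came from separate animals.

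Tissues were compared two-sided on log2(FPKM + 0.5), over genes whose mean reached 1 FPKM, by limma with its intensity trend (limma 3.58.1, R 4.3.3). treat tested against 2-fold, and the interaction used 4 group means over 12 libraries. The fits were checked on simulated reads. The rest used Python 3.11.15 (scipy 1.17.1, pandas 2.3.3, numpy 2.4.6, matplotlib 3.10.9). Named were the 2 genes with the largest difference in each direction, the rule for identifiers without names. Alternatives changed the pseudocount, filter, scaling, trend, weights, libraries fitted, a replicate block and the limits of restriction, and left out each library. Genes chosen from the values stood in for the testis marker lists. That choice, the percent limits, the length, tier and 16-fold classes, voom on recovered reads and the wild-type counts without brain replicate 2 were chosen after seeing the data. The comparison, its genes and the lists were chosen with earlier results of these data known.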

Additional observations from a re-analysis of the deposited data

Results flagged for a closer look

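A difference between groups drew attention to 1 result: the tissue difference was not the same in transgenic and wild-type rats for 69 of 16100 genes (limma, interaction over 12 libraries, Benjamini-Hochberg adjusted p under 0.05). At an unadjusted p under 0.05 there were 1349 genes. The genotypes differed more in testis for 56 of the 69, a count without the share over all genes beside it. Without single libraries the count ran from 25 to 66, and voom on the recovered reads called 49 genes, 39 of them among the 69. The count fell furthest, to 3 genes, when same-numbered brain and testis samples of a genotype were tied together in the fit. In all 3 the difference, brain minus testis, was higher in transgenic rats. Whether such samples share an animal is not known.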

How the results depend on the processing

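The counts of genes that differed between the tissues, and of those over 2-fold, stayed within 1.5 times in 17 alternatives each: 10171 to 17203 and 7010 to 10430, and 13857 to 14199 and 9589 to 9858 without single libraries. The 4 named genes kept their direction and call in the 17 alternatives of each, with limma adjusted p-values up to 2.83e-05. Testis-restricted genes numbered 391 at a limit of 0.1 FPKM in brain, 1237 at 1 FPKM, 151 at 100 FPKM or more in testis, 193 with 0 reads in brain and 408 in wild type. Without single transgenic libraries they numbered 933 to 1035. Brain-restricted genes numbered 161, 767, 53 and 52 under the same limits, 510 in wild type, and 493 to 528 without single transgenic libraries. The stricter limits keep fewer genes by construction. The level of testis genes in transgenic brain ran from 0.09% to 0.155% without single libraries. Depth limits the genes with 0 reads: at 3 reads over a group no fold beyond the bounds given can be seen.

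Deviations of same-numbered brain and testis samples from their group means correlated by 0.117, 0.003 and 0.029 in transgenic rats. In wild-type rats the values were 0.001, -0.020 and 0.011, and not every sample correlated best with its own number. This cannot decide whether same-numbered samples came from the same animal, since different tissues need not deviate alike. With the replicate block, 14382 and 9944 genes were called, against 14342 and 9922, and the interaction, with genotype and number as the block, was called for 3 genes, all higher. The cause was not tested. Marker lists and rat Dnmt3a need gene names and were not run. Without single libraries the interaction was called for 25 to 66 genes.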

Other observations

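Genes that varied between libraries of the same tissue were few. Of 9659 genes at 5 FPKM or more in transgenic brain, 139 (1.44%) ranged over 2-fold between the 3 libraries and 20 over 4-fold. In transgenic testis these numbers were 195 (2.13%) and 26 of 9145 genes. Wild-type brain had 59 genes ranging over 4-fold and wild-type testis 23. Of the 20 brain genes, 5 were also over 4-fold between the wild-type brain libraries, and of the 26 testis genes, 4 between the wild-type testis ones. Among the 20 brain genes, 5 were over 16-fold higher in testis and 2 over 16-fold higher in brain. These classes hold 10.7% and 6.66% of all genes tested. Their shares of the 9659 genes at 5 FPKM or more in brain are not given here, so the bases are unlike.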
